A study of Mus musculus with 6 samples.

Results

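Genes of the p53 response and the Polo-like kinase genes Plk2 and Plk3 were examined in mouse embryonic stem cells (ESCs) stimulated through gp130, the receptor subunit that activates the transcription factor STAT3. Members were the genes Trp53, Cdkn1a, Mdm2, Ccng1, Plk2, Plk3, Bbc3, Sesn2, Trp53inp1 and Bax, each taken where a feature of the array carried exactly that symbol in the platform's annotation. Of these 10 genes, 7 had such a feature, 1 each, out of 19937 genes named alone on a feature. Trp53 and Bax had no feature under their own symbol and were not analysed here. The feature that carries Cdkn1a also carries the noncoding RNA 4930567H12Rik, so it was not counted as a member, and its values are given apart.

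All 6 samples were C57Bl/6 ESCs that stably express GRgp-Y118F, a chimeric receptor in which the ligand-binding part of the receptor for granulocyte colony-stimulating factor (GCSF) precedes the signalling part of gp130, with a tyrosine changed to phenylalanine at the site through which gp130 reaches SHP2 and ERK. There were 2 arrays of untreated control cells, 2 of cells given GCSF, and 2 of cells given LIF/PD, that is leukaemia inhibitory factor (LIF), the natural ligand of the gp130 complex in ESCs, together with 1 uM of PD0325901, an inhibitor of MEK, the kinase upstream of ERK. Treated cells had been without serum for 6 h and were stimulated for 1 h; whether the control cells also went without serum, and whether the line is 1 clone, the sources used here do not say. The study addressed the genes downstream of STAT3. No label states that replicate arrays are from separate cultures, so p-values measure the spread between these arrays, which may be technical.

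The transcription factor p53 is held low in unstressed cells by the ubiquitin ligase Mdm2, which is itself a p53 target. After DNA damage or other stress p53 turns on Ccng1 and genes for cell cycle arrest (Cdkn1a, Btg2), apoptosis (Bbc3, Bax, Pmaip1) and metabolic restraint (Sesn2). Plk2 and Plk3 are Polo-like kinases of the stress and growth factor response; both were first isolated as genes that growth stimuli induce within minutes, Plk2 by serum and Plk3 by fibroblast growth factor, and Plk2 is also a p53 target. Mouse ESCs are described as carrying abundant p53 and as having a short G1 phase with little Cdkn1a.

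The promoters of Plk2, Plk3 and Mdm2 are shown because Plk2 and Plk3 moved in opposite directions and Mdm2 stands for the p53 loop. They are RefSeq windows of 300 bases of build GRCm38.p6, from 250 bases before the start of transcription to 50 after it, written 5′ to 3′ on the strand of the gene, with matches to the motifs searched in capitals. Plk2 lies on the plus strand at chr13:110394794-110395093, Plk3 on the minus strand at chr4:117133914-117134213 and Mdm2 on the minus strand at chr10:117710709-117711008.
Plk2: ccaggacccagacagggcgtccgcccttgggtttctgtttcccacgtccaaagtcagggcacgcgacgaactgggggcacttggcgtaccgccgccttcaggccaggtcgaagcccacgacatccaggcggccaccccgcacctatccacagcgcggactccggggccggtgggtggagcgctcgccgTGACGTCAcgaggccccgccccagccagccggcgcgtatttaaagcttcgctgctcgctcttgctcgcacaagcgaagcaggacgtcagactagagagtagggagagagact
Plk3: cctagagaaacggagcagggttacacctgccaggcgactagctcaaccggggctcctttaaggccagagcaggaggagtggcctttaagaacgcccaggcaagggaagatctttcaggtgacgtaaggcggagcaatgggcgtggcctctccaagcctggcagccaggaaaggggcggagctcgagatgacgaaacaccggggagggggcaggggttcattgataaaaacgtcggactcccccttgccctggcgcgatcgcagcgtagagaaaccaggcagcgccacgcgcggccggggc
Mdm2: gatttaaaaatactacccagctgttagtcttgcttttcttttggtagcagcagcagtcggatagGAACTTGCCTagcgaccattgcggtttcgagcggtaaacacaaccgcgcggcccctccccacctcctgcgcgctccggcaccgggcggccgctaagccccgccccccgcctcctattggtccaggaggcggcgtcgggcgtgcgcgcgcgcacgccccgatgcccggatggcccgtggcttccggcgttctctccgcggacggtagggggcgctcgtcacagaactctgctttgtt
Both strands were searched for the STAT palindrome TTCNNNGAA, the p53 half-site, the cyclic AMP element TGACGTCA and the CArG box bound by SRF. The capitals in Plk2 are a cyclic AMP element, TGACGTCA, from base -62 to base -55 counted from the start, a motif that 1.79% of the 32851 promoters of the table held. The capitals in Mdm2 are a p53 half-site, GAACTTGCCT, from base -186 to base -177, and the window of Ccng1 held another, GGGCAAGCCT, from base -185 to base -176; 8.36% of all promoters held at least 1. Windows were found for 6 of the 7 measured members, 8 windows in all, and the entry missing was that of Trp53inp1. The STAT palindrome was in 0 of these 8 windows and in 8.30% of all promoters, and the CArG box in 0 of 8 and in 1.63%. A match is a run of letters, not a bound site, and the letters of more distant elements were not searched.

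Arrays of a group correlated at 0.997 to 0.998 over the 16912 features tested, and arrays of different groups at 0.995 to 0.998. The median of the array's unnamed control features was 6.84 log2 in GCSF replicate 1 and 6.58 to 6.71 in the other 5 arrays. All 8 ESC markers, among them Pou5f1, Nanog and Sox2, lay above the filter on dim features. So did 7 of 8 fibroblast markers, among them Col1a1 and Col3a1; the summed level of those 8 was 7252 to 7339 in control, 7402 to 7414 in GCSF and 7281 to 7290 in LIF/PD on the linear scale, and its part in the results was not tested. Single markers were called by limma in GCSF against control along with the members, where 1.17% of all features were called. Col3a1 rose by 0.29 ± 0.05 (adjusted p = 0.0410) and the trophoblast marker Tfap2c by 0.74 ± 0.06. The neural marker Pax6 rose by 0.54 ± 0.07 and the ESC marker Tdgf1 by 0.30 ± 0.03. Of the markers tested, 6 of 7 fibroblast, 2 of 3 trophoblast, 2 of 3 neural and 7 of 8 ESC markers did not pass. Utf1, another ESC marker, lay at -0.16 ± 0.03 and did not pass (adjusted p = 0.0527). Between the treatments, LIF/PD minus GCSF, Utf1 differed by 0.23 ± 0.03 (adjusted p = 0.0137) and Tdgf1 by -0.17 ± 0.03 (adjusted p = 0.0434). In arrays, as in any bulk sample, fewer cells with a transcript and less transcript per cell cannot be told apart. Socs3, the feedback inhibitor of STAT3 signalling, rose in both treated groups on 1 of its features. The rise was 3.13 ± 0.07 log2 (SE, n = 2 arrays per group here and throughout, adjusted p = 2.70e-07) in GCSF and 2.62 ± 0.07 (adjusted p = 1.21e-06) in LIF/PD. The other tested Socs3 feature rose by 0.51 ± 0.08 in GCSF (adjusted p = 0.0219). In LIF/PD it lay at 0.39 ± 0.08 and did not pass (adjusted p = 0.329). Dusp6 and Spry4, which ERK activity keeps on, did not follow the labels: relative to control Spry4 fell by 1.83 and Dusp6 fell by 1.56 under the label GCSF, and under the label LIF/PD they differed by 0.05 and 0.03, although that group was given the MEK inhibitor. Egr1, another ERK target, went the same way, at -1.49 ± 0.08 under the label GCSF and -0.18 ± 0.08 under LIF/PD. Whether the labels of the 2 treated groups were exchanged was not tested. If they were, each result given for one against control holds for the other, and each difference between the 2 changes sign. The groups were kept as labelled, and each direction below refers to arrays by their label.

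By its label, the comparison of GCSF with control asks which members respond to the ligand of the chimeric receptor. If control cells kept their serum, serum withdrawal cannot be told apart from the ligand. The 2 Polo-like kinases moved in opposite directions. Plk2 was higher and Plk3 lower in the arrays labelled GCSF, and the other 5 members did not pass. That is 2 of 7 members, against a background of 1.17% of all features tested in either direction, 0.804% higher and 0.367% lower. Calls were made by limma with Benjamini-Hochberg adjustment over all features, at an adjusted p under 0.05. Members and the further lists below were chosen with earlier results of these data known. Their counts beside the background are therefore not an independent test. The median log2 difference was 0.03 over the 7 members and 0.01 over all features.

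Plk2, a serine/threonine kinase known for centriole duplication and for the survival of stressed cells, read 8.53 and 8.55 log2 in control, 9.04 and 8.98 in GCSF and 8.70 and 8.76 in LIF/PD. The 3 groups did not overlap at any point: GCSF was highest, LIF/PD lay between, and control was lowest. The rise from control to GCSF was 0.47 ± 0.05 log2 or 1.39-fold (95% interval 1.28 to 1.51, adjusted p = 0.00307). It ranked 67th by size among the 136 features that rose, and 0.692% of all features differed by as much in either direction. It was called under each of the 16 alternative settings, at a difference of 0.43 to 0.51. With no array left out, adjusted p by limma ran from 0.000248 to 0.0323. Only a normalization, the covariate, or a control or GCSF array left out could move the difference itself. The other settings bear on its error and adjusted p alone.

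Plk3, a kinase of the DNA damage and hypoxia responses that can phosphorylate p53, read 9.72 and 9.74 in control, 9.39 and 9.32 in GCSF and 9.69 and 9.69 in LIF/PD. The arrays labelled GCSF stood apart from the other 4, which lay close together. Plk3 fell by 0.37 ± 0.04 log2, a level 1.29-fold lower than in control (adjusted p = 0.00378). Of the 62 features that fell it ranked 34th by size. The call was lost without control replicate 1 (adjusted p = 0.0522) and without control replicate 2 (adjusted p = 0.0514), at differences of -0.38 and -0.37, and held under the other 14 settings, where adjusted p was as low as 0.00039.

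**Figure D1:**
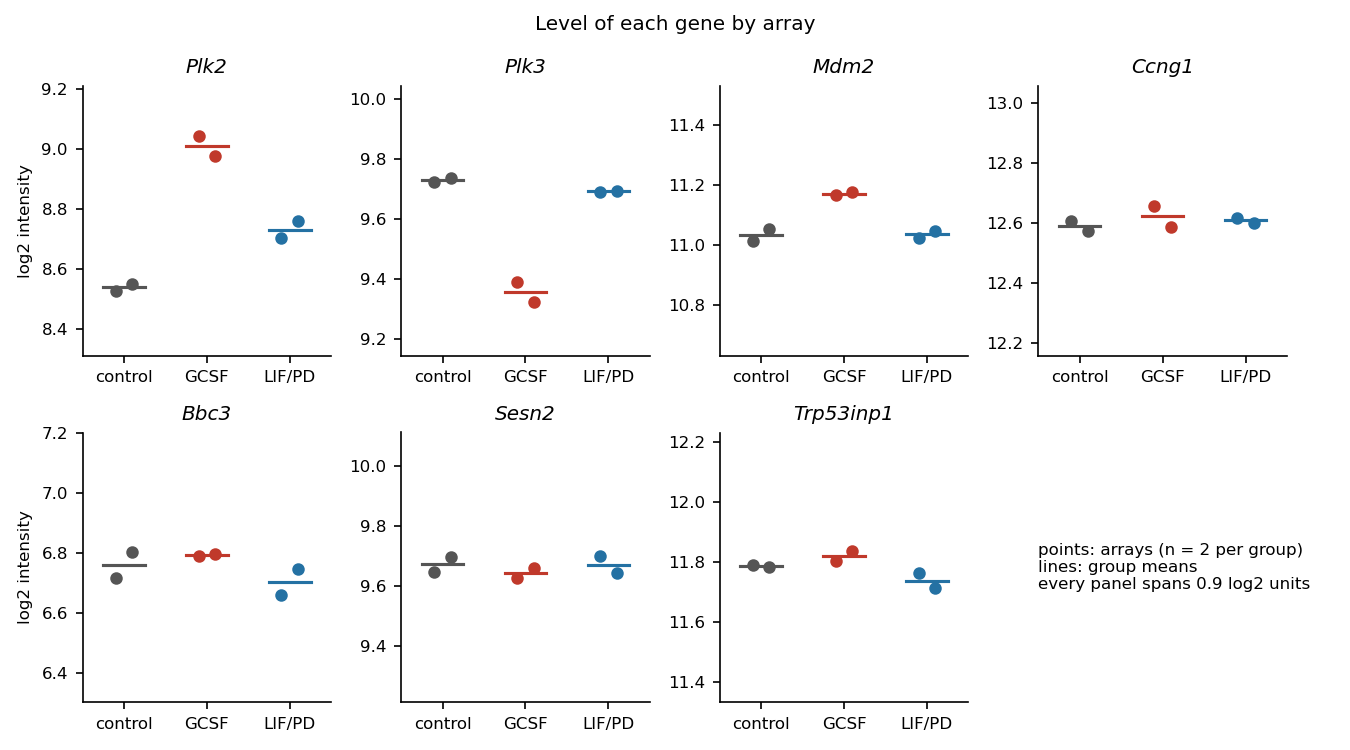
Log2 intensity of the 7 measured genes (vertical axis, 0.9 log2 units in every panel) in the control, GCSF and LIF/PD arrays; points are arrays (n = 2 per group) and lines are group means. Plk2 is highest and Plk3 lowest in the arrays labelled GCSF, with no overlap with the other groups, while Ccng1, Bbc3 and Sesn2 overlap between GCSF and control.

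Mdm2, the ligase that limits p53, read 11.01 and 11.06 in control, 11.17 and 11.18 in GCSF and 11.02 and 11.05 in LIF/PD. Both arrays labelled GCSF lay above all 4 others, but the difference from control of 0.14 ± 0.03 log2 or 1.10-fold (95% interval 1.04 to 1.16) did not pass (adjusted p = 0.139, and 0.0614 to 0.592 under the alternatives). Features that differed from control by at least as much made up 13.6% of those tested. An unadjusted p under 0.05 was reached by Mdm2, Plk2 and Plk3, 3 of 7 members, and by 12.1% of all features.

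The remaining members gave values near 0. Ccng1, which encodes cyclin G1, a partner of protein phosphatase 2A, read 12.57 to 12.66 over all 6 arrays and differed between GCSF and control by 0.03 ± 0.04 (adjusted p = 0.780). Trp53inp1, which encodes a nuclear protein that promotes p53 activity and autophagy, read 11.71 to 11.84 and differed by 0.04 ± 0.03 (adjusted p = 0.742). Its GCSF arrays lay above the control arrays, with a gap smaller than the distance between the 2 GCSF arrays. Sesn2, an inhibitor of mTORC1 under stress, read 9.63 to 9.70 and differed by -0.03 ± 0.04 (adjusted p = 0.842). Bbc3, which encodes the pro-apoptotic protein PUMA, read 6.66 to 6.80 and differed by 0.03 ± 0.08 (adjusted p = 0.913). Its mean of 6.75 lay just inside the filter on dim features at 6.70, and its 95% interval, 0.906-fold to 1.15-fold, was the widest of the 7. For Ccng1, Trp53inp1 and Sesn2 the intervals ran from 0.914-fold to 1.08-fold, so larger changes in the arrays labelled GCSF lay outside them. In all, 4 of 7 members (Mdm2, Plk2, Plk3 and Trp53inp1) had GCSF arrays that did not overlap with control, against 41.8% of all features.

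**Figure D2:**
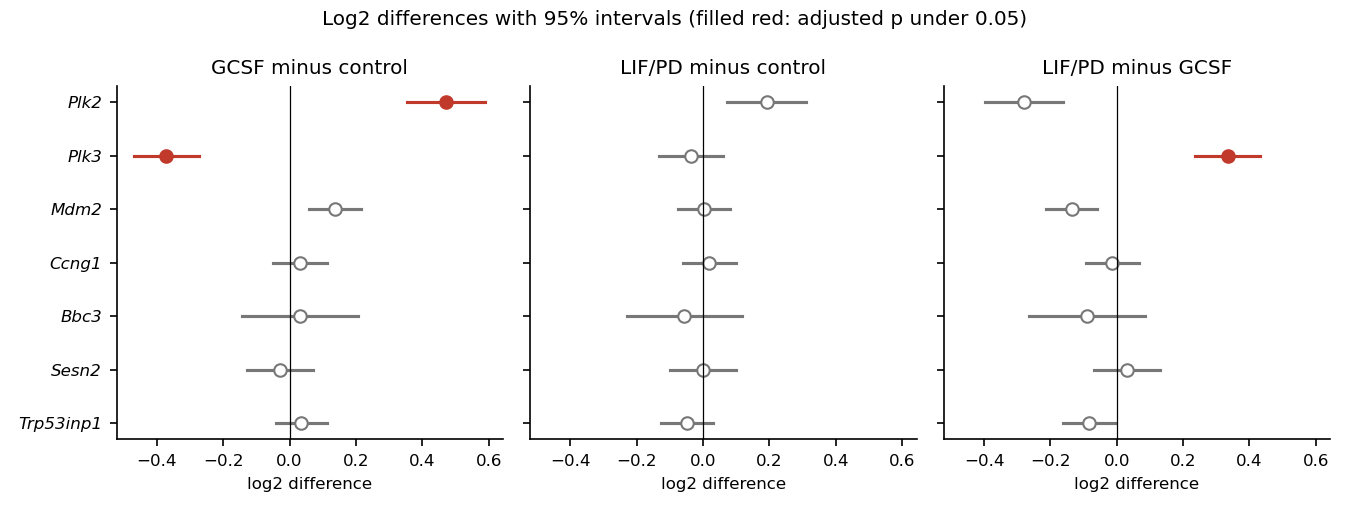
Log2 difference of each gene (horizontal axis) in the 3 comparisons, with 95% intervals from the limma fit; filled red points have an adjusted p under 0.05. Plk2 and Plk3 are called in opposite directions in GCSF minus control, no gene is called in LIF/PD minus control, and Plk3 alone is called in LIF/PD minus GCSF.

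The feature shared by Cdkn1a, the inhibitor of cyclin-dependent kinases through which p53 arrests the cycle, and 4930567H12Rik lay outside the rule for members and was singled out after its values were seen. It read 11.28 and 11.23 in control, 11.52 and 11.55 in GCSF and 11.34 and 11.24 in LIF/PD. The arrays labelled GCSF lay above the other 4, by 0.28 ± 0.04 log2 over control (adjusted p = 0.0214). LIF/PD differed from control by 0.03 ± 0.04 (adjusted p = 0.938) and from GCSF by -0.25 ± 0.04 (adjusted p = 0.0446). RefSeq places Cdkn1a on chromosome 17 and 4930567H12Rik on chromosome 8, so the shared annotation does not come from neighbouring genes, and which of the 2 transcripts the feature measured was not tested.

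LIF/PD against control asks, by its label, for genes that respond to LIF and the MEK inhibitor given together. No array had LIF or the inhibitor alone, so the 2 cannot be told apart here. Nor can serum withdrawal, if control cells kept their serum. The comparison uses the same 2 control arrays as the GCSF comparison. None of the 7 members passed by limma, where 0.065% of all features did, and 1 member, Plk2, had an unadjusted p under 0.05, against 6.59% of all features. Plk2 was 0.19 ± 0.05 log2 above control, or 1.14-fold (95% interval 1.05 to 1.24, adjusted p = 0.601), with both arrays above both controls; 3.6% of all features differed by as much. Plk3 differed by -0.04 ± 0.04, 0.911-fold to 1.04-fold. Mdm2, at 0.00 ± 0.03, and Sesn2, at 0.00 ± 0.04, showed the smallest differences. The other values were 0.02 ± 0.04 for Ccng1, -0.05 ± 0.03 for Trp53inp1 and -0.06 ± 0.08 for Bbc3. The arrays of Plk2, Plk3 and Trp53inp1 did not overlap with control, 3 of 7 members against 38.4% of all features, although for Plk3 the gap was a few hundredths of a log2 unit.

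**Figure D3:**
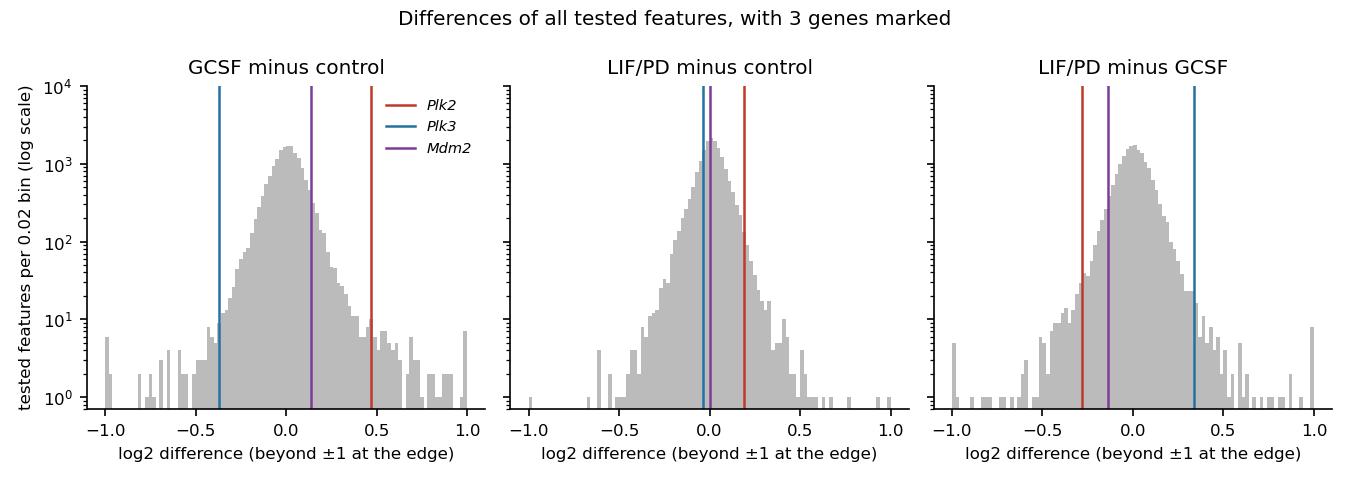
Number of tested features (vertical axis, log scale) by log2 difference (horizontal axis, bins of 0.02, values beyond 1 gathered at the edge) in the 3 comparisons, with Plk2, Plk3 and Mdm2 marked by lines. In GCSF minus control Plk2 at 0.47 and Plk3 at -0.37 lie in the tails, while Mdm2 at 0.14 lies in the shoulder, where 13.6% of features differ by as much.

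Whether the 2 treatments differed was tested directly. Plk3 was 0.33 ± 0.04 log2 or 1.26-fold higher in the arrays labelled LIF/PD than in those labelled GCSF (95% interval 1.18 to 1.35, adjusted p = 0.0120), the only member called of 7, where 0.846% of all features were called. The call held under 12 of 16 alternatives; it was lost without GCSF replicate 2 (adjusted p = 0.0513), without either LIF/PD array (0.110 and 0.110) and with the control feature median as a covariate (0.152), at differences of 0.30 to 0.38. Plk2 was lower in LIF/PD than in GCSF by 0.28 ± 0.05 and just missed the threshold (adjusted p = 0.0572); it passed with a stricter filter (0.0497) and with 1 value per gene (0.0199). Mdm2 differed by -0.14 ± 0.03 (adjusted p = 0.147) and Trp53inp1 by -0.08 ± 0.03 (adjusted p = 0.389). Bbc3 differed by -0.09 ± 0.08, Ccng1 by -0.01 ± 0.04 and Sesn2 by 0.03 ± 0.04. The arrays of the 2 treatments did not overlap for Bbc3, Mdm2, Plk2, Plk3 and Trp53inp1, 5 of 7 members against 41.5% of all features, and 4 of 7 (the same without Bbc3) had an unadjusted p under 0.05, against 11.8%.

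**Figure D4:**
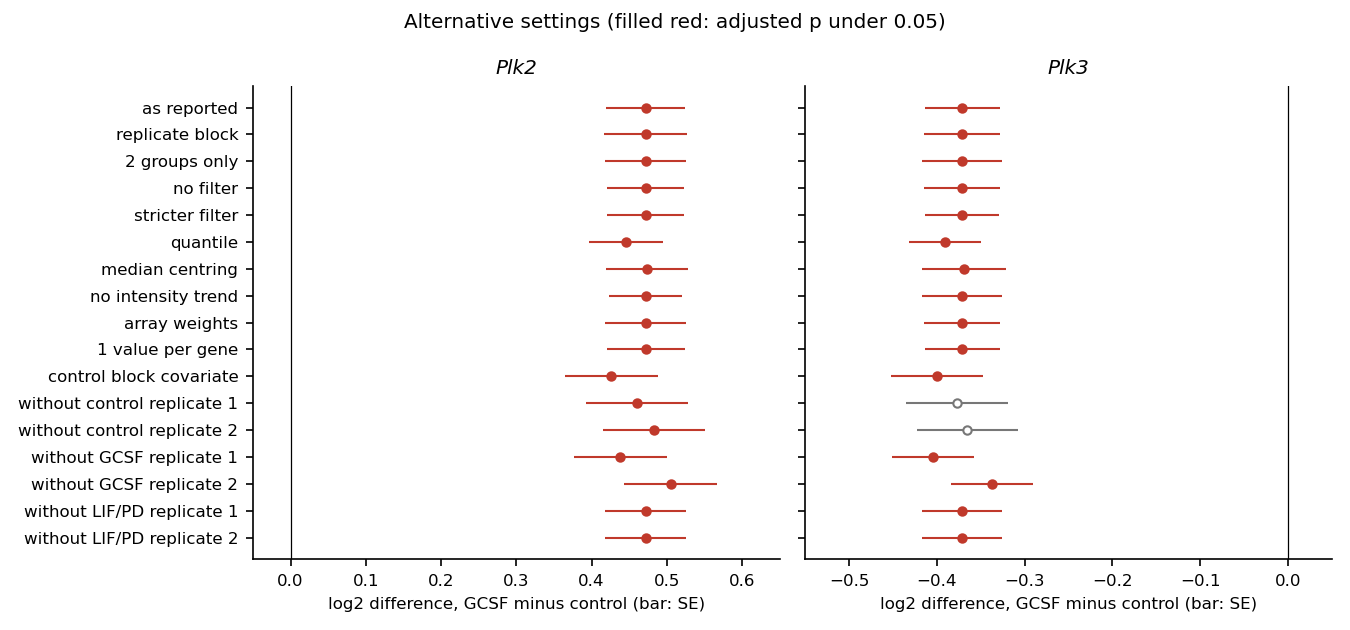
Log2 difference of Plk2 and Plk3 between GCSF and control (horizontal axis, bars are SE) as reported and under each of the 16 alternative settings (vertical axis); filled red points have an adjusted p under 0.05. Plk2 lies between 0.43 and 0.51 and Plk3 between -0.40 and -0.34, and the open points of Plk3 are the fits without a control array. Only a normalization, the covariate, or a control or GCSF array left out could move a point.

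The genes whose values over the 6 arrays ran closest to those of Plk2 and Plk3 were ranked by the root mean square distance between log2 values, each feature centred on its own mean. For Plk2, whose own values lay 0.195 from their mean by the same measure, the nearest were Parp14 at 0.0272, Arntl2 at 0.0332, Lama1 at 0.0428, Helb at 0.0432 and Coil at 0.0440. All 5 rose in the arrays labelled GCSF, by 0.41 to 0.52 log2, which follows from how they were chosen. For Plk3, 0.168 from its mean, the nearest were Zfp719 at 0.0279, Slc39a14 at 0.0282, Tnfaip3 at 0.0343, Snapc3 at 0.0421 and Tor3a at 0.0428. Zfp719 fell by 0.38, Slc39a14 by 0.38, Snapc3 by 0.44 and Tor3a by 0.35, while Tnfaip3, which encodes an inhibitor of NF-kB signalling, lay at -0.35 ± 0.07 and did not pass (adjusted p = 0.0792). These are likenesses of values and were not tested. The genes were picked for running close to Plk2 or Plk3, so their directions are no separate support for either.

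Other genes of the p53 pathway were read against the same shares of all features, which for an adjusted p under 0.05 were 1.17% in GCSF against control, 0.065% in LIF/PD against control and 0.846% in LIF/PD against GCSF, and for an unadjusted p under 0.05 were 12.1%, 6.59% and 11.8%. Of 35 further p53 target genes 32 were tested, and in GCSF against control 1 rose, 1 fell and 30 did not pass, with a median of 0.02 beside 0.01 over all features; 7 had an unadjusted p under 0.05. Btg2, an antiproliferative factor, rose by 0.69 ± 0.05 (adjusted p = 0.000427), and Gadd45a, a DNA damage and stress response gene, fell by 0.32 ± 0.06 (adjusted p = 0.0378). Bcl6, a transcriptional repressor, lay at 0.23 ± 0.07 and did not pass (adjusted p = 0.204). In LIF/PD none of the 32 passed by limma and 3 had an unadjusted p under 0.05; Btg2 lay at 0.01 ± 0.05 and Gadd45a at 0.16 ± 0.06. Between the treatments Btg2 was lower in LIF/PD by 0.68 ± 0.05 (adjusted p = 0.00104) and Gadd45a higher by 0.48 ± 0.06 (adjusted p = 0.00710), and the other 30 did not pass; 5 of the 32 had an unadjusted p under 0.05.

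Of 26 tested regulators of the p53 protein 0 passed in any comparison by limma, a count that shares of 0.065% to 1.17% over all features do not set apart. At an unadjusted p under 0.05 there were 2 in GCSF against control, 0 in LIF/PD against control and 2 in LIF/PD against GCSF, where the shares over all features were 12.1%, 6.59% and 11.8%. The 3 with the smallest p in the GCSF comparison were the checkpoint kinase genes Chek1 (0.11 ± 0.04, adjusted p = 0.360) and Atr (0.12 ± 0.05, adjusted p = 0.390), and Mdm4, the partner of Mdm2 (0.13 ± 0.06, adjusted p = 0.448). Among 10 tested relatives of the members 0 passed and 0 had an unadjusted p under 0.05 in any of the 3 comparisons; the mitotic kinase gene Plk1 lay at -0.07 ± 0.03 in GCSF, Sesn3 at 0.11 ± 0.05 and Ccng2 at -0.15 ± 0.09. Of 13 BCL2 family genes 0 passed, and 5 had an unadjusted p under 0.05 in GCSF against control (12.1% of all features), 1 in LIF/PD against control (6.59%) and 3 in LIF/PD against GCSF (11.8%). In GCSF against control those with the smallest p were Bid, a pro-apoptotic member, at 0.19 ± 0.05 (adjusted p = 0.149), Bcl2l1, which encodes the survival factor BCL-XL, at -0.21 ± 0.06 (adjusted p = 0.167), and Pmaip1, the p53 target that encodes NOXA, at -0.25 ± 0.08 (adjusted p = 0.275). The smallest p of the list in any comparison was that of Bcl2l11, which encodes the pro-apoptotic protein BIM, chosen after its values were seen; it was 0.25 ± 0.05 higher in LIF/PD than in GCSF and did not pass (adjusted p = 0.0555). Of 15 cyclins, kinases and partners of G1 and S phase 0 passed, with 1 at an unadjusted p under 0.05 in each comparison against control and 0 between the treatments, beside the same shares over all features; Pcna lay at -0.18 ± 0.06 in GCSF (adjusted p = 0.272) and -0.16 ± 0.06 in LIF/PD (adjusted p = 0.719), Cdk2 at 0.08 ± 0.04 in GCSF and Cdk1 at 0.08 ± 0.04.

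**Figure D5:**
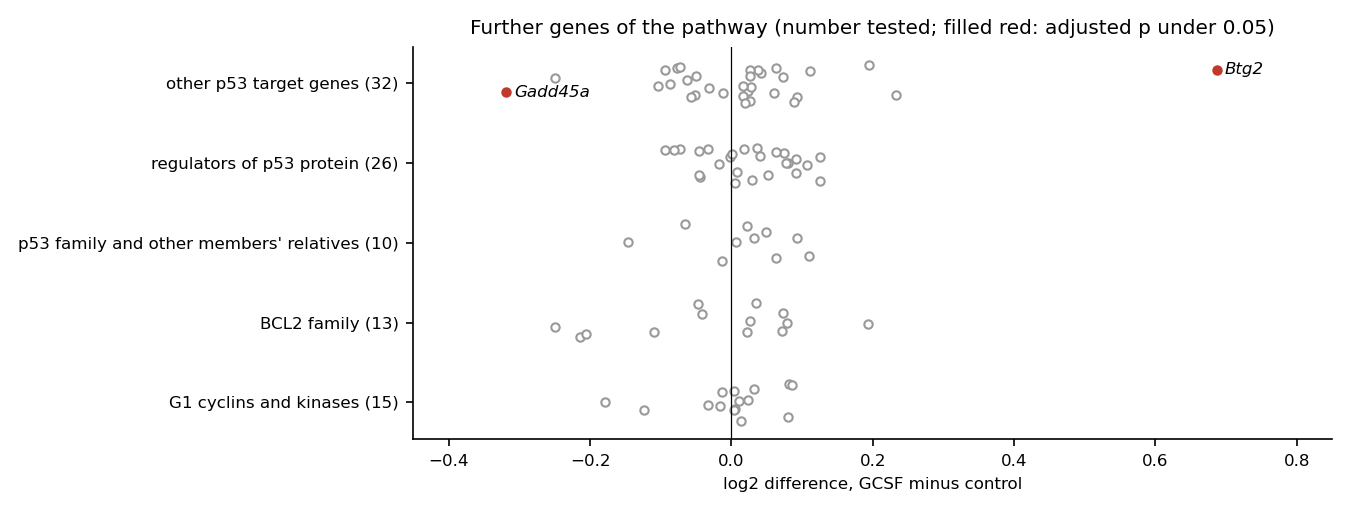
Log2 difference between GCSF and control (horizontal axis) of each tested gene of 5 further lists (rows, with the number tested); filled red points have an adjusted p under 0.05 and vertical position within a row has no meaning. Btg2 at 0.69 and Gadd45a at -0.32 are the only genes of these lists past the threshold.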

How the data were processed

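TRIzol extracts of total RNA from 6 samples carried a biotin label on single-colour arrays, per the labels' protocols. The deposited table holds 34760 features, with values from 2.29 to 14.5 that were read as log2 intensity from their range; the log base, background correction and normalization are not given in the sources used here. Gene names come from the platform's annotation table, 21640 with 1 symbol and 1321 with several. The 6573 unnamed features below the first annotated identifier were treated as a control block and left out. Of the other 28187, 16912 were tested, those whose mean reached the 40th percentile, 6.70; all 7 features of members passed.

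A model with a mean for each group was fitted over the 6 arrays with limma 3.58.1 in R 4.3.3, with an intensity trend in the variances (degrees of freedom: 3 residual, 8.40 in total). Two-sided p-values were adjusted over the 16912 features by Benjamini-Hochberg. With 2 arrays against 2, an exact permutation test of a single gene could not pass 0.05 and was not used. Further lists took each gene's feature with the highest mean. Members and lists were chosen with earlier results of these data known. Named besides the members were genes of these lists that were called or had 1 of the 3 smallest p in GCSF against control. So were the 5 features nearest in pattern to each called member, and Socs3, Dusp6, Spry4 and Egr1 as checks of the labels. Bcl2l11 and the feature shared by Cdkn1a and 4930567H12Rik were named outside this rule, after their values were seen. The alternatives were a replicate block, a fit of the 4 arrays compared, 2 other filters, 2 normalizations, no trend, array weights, 1 value per gene, the control block median as a covariate, and each array left out.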

Additional observations from a re-analysis of the deposited data

How the results depend on the processing

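Over 16 alternatives, 330 values of members were recomputed, of which 310 kept their direction and their side of the threshold. Bbc3 has no value with the stricter filter or 1 value per gene, where it lay below the filter. The replicate numbers were not treated as pairs: deviations of same-numbered arrays correlated at 0.01 to 0.10 between groups, and with the replicate block 195, 9 and 165 features were called (GCSF against control, LIF/PD against control, LIF/PD against GCSF) in place of 198, 11 and 143. The number of members called was 2 for GCSF against control and 1 to 2 with an array left out. For LIF/PD against GCSF it was 1, and 2 with the stricter filter or 1 value per gene, 0 with the control block covariate and 0 to 1 with an array left out. All features called in GCSF against control fell to 125 without an intensity trend, 99 with the covariate and 88 to 164 with an array left out. In LIF/PD against control they were 1 without a trend, 24 with 1 value per gene and 1 to 7 with an array left out. In LIF/PD against GCSF they were 82 with the 2 groups only, 71 without a trend, 26 with the covariate and 30 to 91 with an array left out. Fewer arrays or a covariate also leave fewer degrees of freedom.

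The sign turned in 12 uncalled values of members near 0, and the cause was not tested. With the control block covariate, Bbc3 lay at -0.0019 in GCSF against control, and in LIF/PD against GCSF Ccng1 lay at 0.0155 and Sesn2 at -0.0030. In LIF/PD against control Mdm2 lay at -0.0079 after quantile normalization and Sesn2 at 0.0062 after median centring. With an array left out, Ccng1 ranged from -0.0038 to 0.0668 and Bbc3 from -0.0104 to 0.0755 in GCSF against control, Mdm2 from -0.0185 to 0.0219 and Sesn2 from -0.0279 to 0.0271 in LIF/PD against control, and Ccng1 from -0.0488 to 0.0219 in LIF/PD against GCSF. With 2 arrays per group, differences as small as these are within the error.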
